A study of Mus musculus with 7 samples.

Results

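The 10 genes described here, Psph, Phgdh, Psat1, Shmt1, Shmt2, Mthfd2, Asns, Atf4, Ddit3 and Trib3, make serine and pass its carbon to folate, or belong to the integrated stress response that controls those enzymes. They were followed on microarrays of mouse embryos that lack Adnp, which encodes a chromatin-bound protein with zinc fingers and a homeodomain. A probe set, a group of short probes read as 1 signal, was taken for a gene where the array annotation gave it that symbol alone. All 10 genes were found in this way, with 25 of the 20380 probe sets that have 1 symbol, which stand for 12393 genes. The set was chosen by 1 measured value, the higher signal of Psph in the knockout, so the knockout values of Psph are a description and carry no test.

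Whole bodies of C57BL/6 embryos on embryonic day 9, freed of yolk sac and amnion, came from mice heterozygous for Adnp and were typed from yolk sac DNA for Adnp and for a neomycin resistance gene. The groups were wild type (Adnp +/+, 2 arrays), heterozygous (Adnp +/-, 3 arrays) and knockout (Adnp -/-, 2 arrays), labelled as mixed in sex. RNA of 2 littermates of one genotype was pooled for each array, so the 7 arrays hold 14 embryos and the replicate is the pool. The study asked which genes lie downstream of ADNP at the stage when embryos without it develop abnormally before they are lost.

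Serine is made from the glycolytic intermediate 3-phosphoglycerate by phosphoglycerate dehydrogenase (Phgdh), phosphoserine aminotransferase (Psat1) and phosphoserine phosphatase (Psph), which takes off the phosphate in the last step. Serine hydroxymethyltransferase, cytosolic (Shmt1) or mitochondrial (Shmt2), then splits serine into glycine and a one-carbon unit bound to folate, and Mthfd2 oxidises that unit in mitochondria for purine and thymidylate synthesis. When amino acids run short or proteins misfold, kinases phosphorylate the initiation factor eIF2, translation of the transcription factor ATF4 rises, and ATF4 induces Asns (asparagine synthetase), Ddit3 (the transcription factor CHOP), Trib3 (a pseudokinase) and several serine enzymes. Growing embryos need much of this carbon for nucleotides, and neural tube closure in the mouse depends on mitochondrial one-carbon metabolism.

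Signals were computed by MAS5 and are linear, with the same trimmed mean on every array (150.1). Median signals were 55.5 to 57.4, and between any 2 arrays the log2 signals of the tested genes had a Pearson's r of 0.925 to 0.982 (r across genes; genes are no independent replicates). The targeted gene could not be checked, since its only probe set is also annotated to its neighbour Dpm1. That shared probe set read 897.2 and 1026 in wild type, 1115, 985.9 and 1196 in heterozygotes, and 1880 and 1682 in the knockout. Markers of visceral endoderm, the layer around the embryo that absorbs and secretes, stood apart in the knockout. Their list was chosen with earlier results of these data known, so its counts are a description. Of the 23 markers listed, 21 had a probe set and 19 passed the filter on brightness. Of these 19, 11 rose against wild type, 0 fell and 8 did not pass, where 1.96% of all genes were higher. Their summed signal was 1204 and 3746 in wild type, 1312 to 2540 in heterozygotes, and 12565 and 15013 in the knockout, and no marker was at 0 on every array. Markers of primitive red cells, present in any embryo of this age, summed to 9681 to 16884 on the 7 arrays. In knockout against wild type 0 of 8 passed and 1 had an unadjusted p under 0.05 (limma), with a median difference of -0.13. Of all genes 3.32% passed and 19.1% had an unadjusted p under 0.05. Of 7 decidua genes listed, 6 had a probe set and 3 passed the filter. The decidual prolactin gene Prl8a2 read 828.6 in heterozygous replicate 1 against 16.2 to 138.4 on the other arrays, and that array was left out in turn like every other. Dcn was also highest there (61.6 against 30.1 to 48.9), but Wnt4 at 72.4 was below wild-type replicate 2 (73.7). Against wild type 0 of the 3 rose in the knockout and Wnt4 fell (-1.26, limma, adjusted p = 0.0371), where 1.36% of all genes were lower. The embryos are labelled as mixed in sex, but the 3 Y-linked genes with a probe set summed to 32.9 and 21.4 in wild type, 97.8 to 187.5 in heterozygotes, and 144.8 and 207.5 in the knockout. Both wild-type pools are thus low against that label, where Kdm5d read 10 and 4.3, while the other arrays ranged from 46.7 to 102.9, and Kdm5d rose in the knockout by 2.91 (limma, adjusted p = 0.00559). In comparisons with wild type, genotype and Y-linked signal cannot be told apart, while heterozygotes and knockout overlapped in it. Because whole embryos were measured, more cells of a type and more RNA per cell cannot be told apart.

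Psph, the phosphatase of the last step, was about doubled in knockout embryos and overlapped between the other genotypes. Its single probe set (1415673_at) read 117.5 and 102.4 in wild type, 111.7, 118.3 and 98.8 in heterozygotes, and 232.2 and 202.9 in the knockout. Both knockout pools lay well above the 5 others, whose values overlapped between wild type and heterozygous. The means were 110.0 ± 10.7 (SD, n = 2) in wild type, 109.6 ± 9.92 (n = 3) in heterozygotes and 217.6 ± 20.7 (n = 2) in the knockout, a ratio of knockout to wild type of 1.98. On the log2(signal + 3.8) scale used for all differences the knockout stood 0.96 above wild type and 0.97 above heterozygotes. The first of these ran from 0.86 to 1.06 with any 1 array left out. Heterozygotes differed from wild type by -0.01 (95% interval -0.33 to 0.32, limma, adjusted p = 0.999), and by -0.40 (0.914) in a fit, added after seeing the data, that also holds the mean log2 signal of Y-linked genes.

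**Figure D1:**
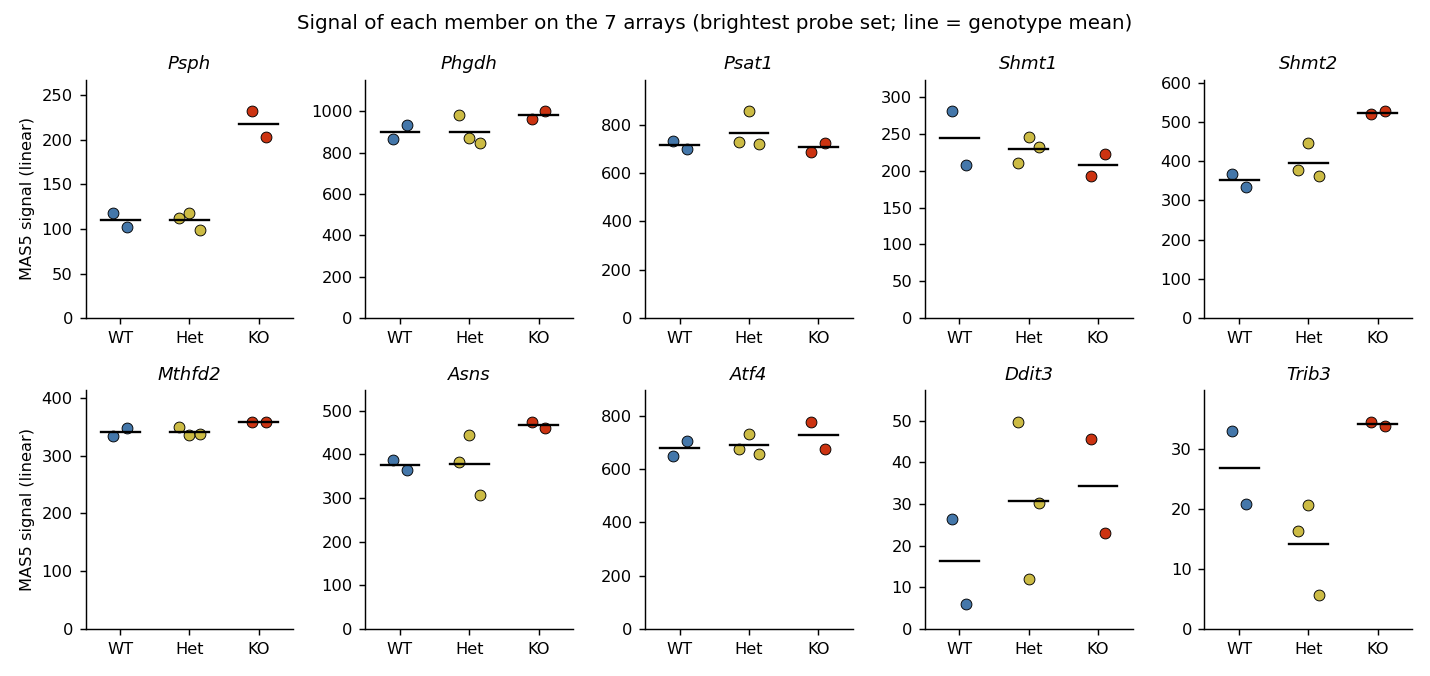
MAS5 signal (linear, from 0) of the 10 genes on each of the 7 arrays, from the brightest probe set of each gene; WT is wild type, Het heterozygous, KO knockout, each point 1 pool of 2 embryos and each line a genotype mean. Psph and Shmt2 in the knockout lie above all 5 other arrays. Asns, Mthfd2 and the dim Trib3 lie above them by a small margin, and Phgdh, Psat1, Shmt1, Atf4 and Ddit3 overlap.

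Neither of the enzymes before Psph in the pathway passed the test in the knockout. Phgdh, which commits 3-phosphoglycerate to serine, read 867.3 and 935.9 in wild type, 982.8, 869.7 and 848.7 in heterozygotes, and 964.6 and 1003 in the knockout on its brightest probe set (1454714_x_at). The groups overlapped, and the knockout differed from wild type by 0.13 (SE 0.11, 95% interval -0.12 to 0.37, limma, adjusted p = 0.585). The other 3 single-symbol probe sets of Phgdh differed by -0.19, 0.13 and 0.30, which are not all of one sign, and all 4 carry a suffix that marks probes able to bind related sequences. A further 2 probe sets of members that are annotated to other genes as well were not used. Psat1, the aminotransferase between Phgdh and Psph, read 733.4 and 698.9 in wild type, 725.8, 856.5 and 718.6 in heterozygotes, and 686.5 and 724.2 in the knockout (1451064_a_at). Its difference was -0.02 (SE 0.12, 95% interval -0.28 to 0.24, adjusted p = 0.951), and the highest pool was a heterozygous one. The other Psat1 probe set differed by 0.22 and overlapped as well.

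Shmt2, the mitochondrial hydroxymethyltransferase, was the 1 gene of the 9 other than Psph that passed the test, and it rose. Its brightest probe set (1455084_x_at) read 366.8 and 335.3 in wild type, 377.1, 447.3 and 362.6 in heterozygotes, and 519.2 and 528.3 in the knockout, so that both knockout pools lay above all others. The means were 351.1 ± 22.3 (SD, n = 2), 395.7 ± 45.3 (n = 3) and 523.8 ± 6.43 (n = 2), and the knockout exceeded wild type by 0.57 on the log2 scale, a ratio of 1.49 (SE 0.13, limma, adjusted p = 0.0433). Of all 8019 genes tested in this comparison 3.32% passed (1.96% higher and 1.36% lower), against 1 of 7 tested members here. Over heterozygotes the difference was 0.41 (SE 0.12, limma, adjusted p = 0.0736), which did not pass, and without heterozygous replicate 2 it was 0.50 (0.0339), which did. The call against wild type was lost without wild-type replicate 1 (adjusted p = 0.0856) or 2 (0.287), heterozygous replicate 3 (0.0543) or knockout replicate 1 (0.197) or 2 (0.217), within a range of 0.028 to 0.287 over the arrays left out and 0.0195 to 0.984 over the other settings. It was also lost when all probe sets were tested separately (0.0619).

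The probe set that gave this call carries the suffix for probes able to bind related sequences. So do the other probe sets of Shmt2 but 1 (1426423_at), and these others stood the same way. The second brightest (1426423_at) read 202.4 and 255.6 in wild type, 207.6, 178.1 and 183.5 in heterozygotes, and 266.3 and 308.2 in the knockout. A dim one (1455985_x_at) read 25.6 and 54.3, then 45.6, 36.5 and 51.3, then 92.5 and 89.7 in the same order. The dimmest (1434204_x_at) read 16.1 and 48.6, 31.4, 43.2 and 27.3, and 59.6 and 57.1. On all 4 probe sets both knockout pools were above the 5 other pools. Such an order held on all 4 probe sets for 6 of the 447 genes with exactly 4 (1.34%). The log2 differences of the 3 further probe sets from wild type were 0.33, 1.20 and 0.94, with limma adjusted p from 0.0858 to 0.318 when each was tested, so none passed alone. The 1 without the suffix (1426423_at) was at 0.33 (0.318), so the call rests on a probe set that may bind related sequences.

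Shmt1, the cytosolic counterpart, did not pass, and its probe sets disagreed. The brightest (1425179_at) read 281.3 and 207.3 in wild type, 209.9, 245.3 and 231.6 in heterozygotes, and 192.4 and 222.4 in the knockout, with a difference from wild type of -0.22 (SE 0.17, 95% interval -0.59 to 0.15, limma, adjusted p = 0.526). The 3 others differed by -0.26, -0.64 and 0.14. In the one with the largest difference (1422198_a_at) the knockout pools at 132.6 and 90.4 were below all others, which read 149.9 to 190.3, and the difference did not pass (limma on all probe sets, adjusted p = 0.135). Probe sets of 1 gene can read different transcripts, so the sign for Shmt1 is not settled by these arrays.

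**Figure D2:**
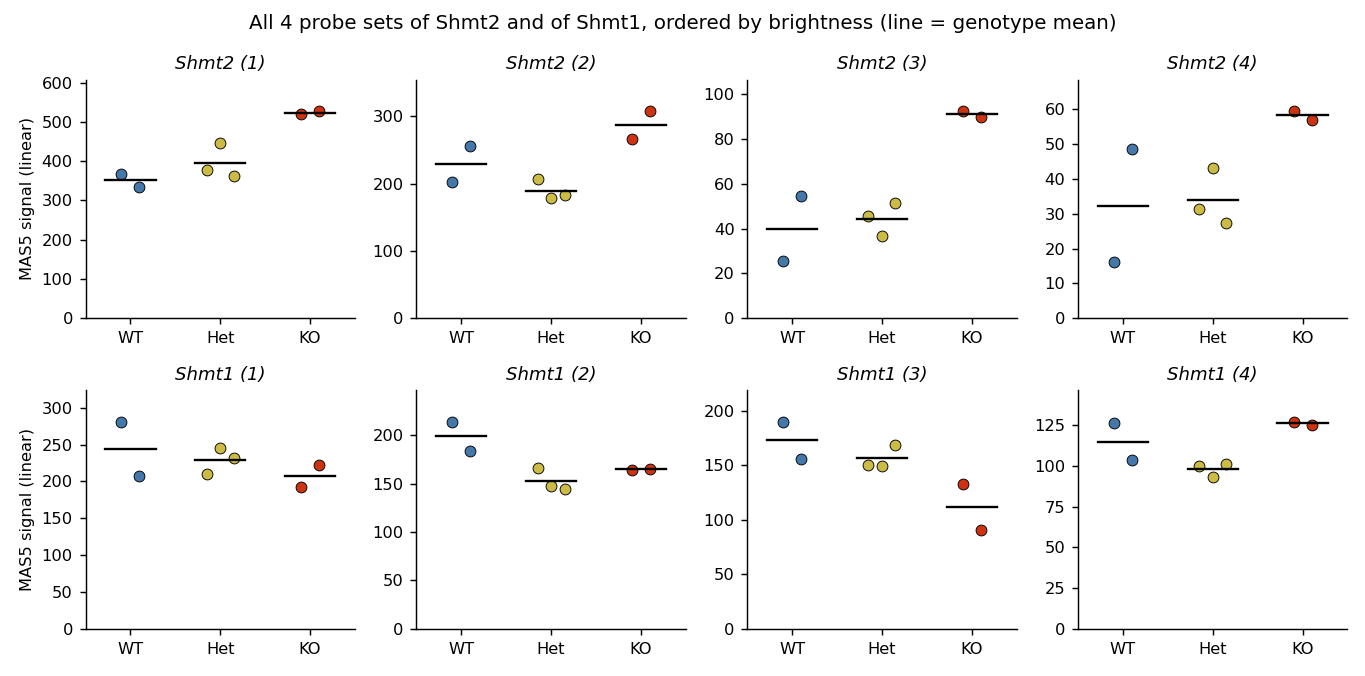
MAS5 signal (linear, from 0) of all 4 probe sets of Shmt2 (top) and of Shmt1 (bottom), numbered from bright to dim; WT, Het and KO are the genotypes, points are pools and lines genotype means. All 4 Shmt2 panels have both knockout pools on top, while the Shmt1 panels differ in order and only the one numbered 3 has them at the bottom.

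Mthfd2, which takes over the one-carbon unit in mitochondria, differed little on the brighter of its 2 probe sets (1419254_at). It read 334.5 and 347.3 in wild type, 350.2, 335.4 and 337.7 in heterozygotes, and 359.0 and 357.9 in the knockout, a difference of 0.07 (SE 0.11, 95% interval -0.18 to 0.32, limma, adjusted p = 0.789). Both knockout pools were on top, by a margin smaller than the spread among heterozygotes. The second probe set (1419253_at) read 161.3 and 150.4 in wild type, 225.6, 227.9 and 179.8 in heterozygotes, and 235.3 and 222.0 in the knockout. Here the wild-type pools were the lowest and heterozygotes overlapped the knockout, with a knockout difference of 0.54 (adjusted p = 0.107 with all probe sets tested).

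Of Asns and Atf4, the stress response genes bright enough to be tested, Asns came closer to a difference. Its brighter probe set (1451095_at) read 387.9 and 365.0 in wild type, 383.6, 445.4 and 307.6 in heterozygotes, and 475.2 and 460.0 in the knockout. Both knockout pools were above the others, though heterozygous replicate 2 came close to the lower one. The difference was 0.31 from wild type (SE 0.16, 95% interval -0.05 to 0.67, limma, adjusted p = 0.333) and 0.32 from heterozygotes (adjusted p = 0.233). The second probe set differed from wild type by 0.25 and overlapped, with 203.3 in a heterozygous pool against 196.6 and 204.3 in the knockout.

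Atf4, the transcription factor at the centre of the response, read 650.2 and 704.9 in wild type, 676.7, 733.4 and 658.5 in heterozygotes, and 778.7 and 677.4 in the knockout (1448135_at). All genotypes overlapped, and the difference was 0.10 (SE 0.12, 95% interval -0.16 to 0.36, limma, adjusted p = 0.699). A second probe set differed by -0.14, and the third stayed at 1.1 to 3.9 on every array, at or near the pseudocount. ATF4 is controlled mainly in translation, which RNA signals do not show.

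Ddit3 and Trib3, the targets of ATF4 tied to cell death and to feedback on the response, were too dim to pass the filter on brightness. Ddit3 read 26.5 and 6.0 in wild type, 49.8, 11.9 and 30.3 in heterozygotes, and 45.5 and 23.0 in the knockout, and the spread within each genotype was as wide as any difference. Its heterozygous replicate 1, the pool with the high Prl8a2 signal, gave the highest value. Trib3 read 33.0 and 20.7, then 16.3, 20.6 and 5.6, then 34.5 and 33.7 on the probe set brightest in log2 (1456225_x_at), and 20.0 and 26.3, 9.1, 17.9 and 39.4, and 19 and 18.6 on the other. The knockout was at the top on one probe set, just above wild-type replicate 1, and in the middle on the other. With no filter, Ddit3 differed from wild type by 1.08 (limma, adjusted p = 0.508) and Trib3 by 0.34 (0.808). Against heterozygotes Ddit3 was at 0.25 (0.884) and Trib3 at 1.19 (0.195).

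Counted together, 8 of the 24 probe sets of genes other than Psph had both knockout pools above all other arrays, 1 had them below and 15 overlapped. The 8 include the 4 of Shmt2 and 1 each of Phgdh, Mthfd2, Asns and Trib3, and probe sets of 1 gene are not separate evidence. Over all 20380 probe sets with 1 symbol, 11.7% were above and 12.5% below. Over the 7 tested members the median difference from wild type was 0.10, against -0.01 over all genes tested. In knockout against heterozygous 0 of 7 passed, 1 had an unadjusted p under 0.05 (limma), and the median was 0.08. There 5.86% of all genes tested passed (3.11% higher and 2.76% lower). Both comparisons use the same knockout arrays. In heterozygous against wild type 0 of 8 members passed and 0 had an unadjusted p under 0.05 (limma), while over all genes 0% passed and 3.54% had an unadjusted p under 0.05. Those 8 differences lay between -0.08 and 0.17.

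**Figure D3:**
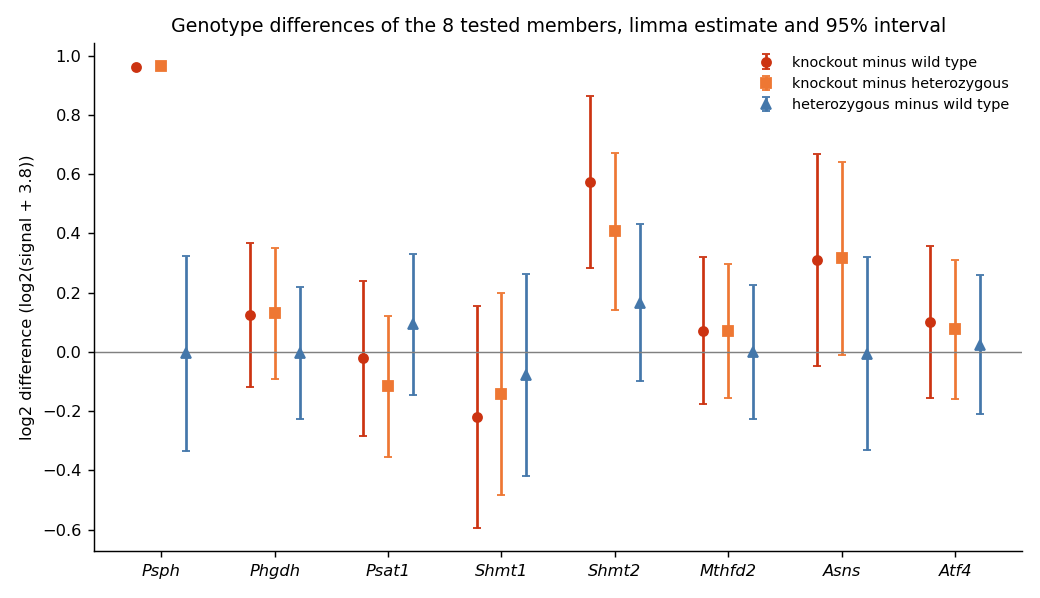
Log2 differences, on the log2(signal + 3.8) scale, of the 8 genes tested in 3 genotype comparisons; marks are limma estimates and bars 95% intervals, left out for the knockout marks of Psph, which chose the set. Psph stands near 1 against both other genotypes, Shmt2 at 0.57 and 0.41, and the intervals of the other genes include 0.

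Sequence upstream of the genes was read for the core of the C/EBP-ATF response element through which ATF4 acts. All 10 members had a RefSeq promoter window (GRCm38.p6, 11 windows), and the 250 bases before each start were searched on both strands for TGATGNAA. A variant, TGGTGNAA, was added after the windows had been seen. The first core is in 3.45% of all 32851 windows, the variant in 2.79% and either in 6.14%. The first was found in Asns, 16 bases before the start, and the variant in Trib3 at 26 and Psat1 at 129 bases. The windows of Psph and Shmt2 hold neither, nor do those of Phgdh, Shmt1, Mthfd2, Atf4 and Ddit3. The sequences below show the 3 matches in capitals, with up to 16 bases on each side, and for comparison the sequence before Psph up to the start of its neighbour Cct6a, and that before Shmt2. All 5 genes lie on the minus strand and are printed 5′ to 3′ on that strand.
Asns, chr6:7693210-7693248: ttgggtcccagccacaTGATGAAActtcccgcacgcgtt
Trib3, chr2:152344070-152344109: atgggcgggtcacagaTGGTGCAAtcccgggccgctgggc
Psat1, chr19:15925172-15925211: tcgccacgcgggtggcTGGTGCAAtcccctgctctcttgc
Psph, chr5:129787254-129787355: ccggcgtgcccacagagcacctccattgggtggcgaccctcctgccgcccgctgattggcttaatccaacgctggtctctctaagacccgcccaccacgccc
Shmt2, chr10:127522445-127522694: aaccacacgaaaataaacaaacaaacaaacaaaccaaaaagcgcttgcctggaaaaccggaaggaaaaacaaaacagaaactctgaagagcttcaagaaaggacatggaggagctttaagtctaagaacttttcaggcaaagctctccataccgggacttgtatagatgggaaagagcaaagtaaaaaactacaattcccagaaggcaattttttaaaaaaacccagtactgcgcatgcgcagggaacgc
A match is a run of letters and not a measured binding site, and its absence from a window covers that window alone. Of the genes with a match, Asns and Psat1 did not pass the test and Trib3 was under the filter.

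Psph shares its start region with Cct6a, a subunit of a cytosolic chaperonin. The RefSeq gene table lists Cct6a as overlapping Psph, while by the promoter window printed above 102 bases lie between their starts. The difference was not resolved. Cct6a read 2871 and 2864 in wild type, 3029, 2644 and 2644 in heterozygotes, and 2530 and 3365 in the knockout, a difference of 0.02 from wild type (SE 0.13, limma, adjusted p = 0.951). The knockout pools were the lowest and the highest of all 7. Nipsnap2, the neighbour on the other side, differed by -0.05 (adjusted p = 0.906) and Mrps17 beyond it by -0.06 (0.844). These 3 were the only tested genes of 7 listed near Psph. Of them 0 passed and 0 had an unadjusted p under 0.05 (limma), where 3.32% and 19.1% of all genes did.

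Further genes of serine, glycine and one-carbon metabolism were taken from a list of enzymes and carriers. It was chosen with earlier results of these data known, so its shares beside those of all genes are a description. Of 15 measured, 1 rose against wild type, 0 fell and 14 did not pass, where 1.96% of all genes were higher, and the median difference was 0.18. The risen gene was Folr1, a folate receptor of the cell surface, which read 83.5 and 67.7 in wild type, 57.0, 96.9 and 72.5 in heterozygotes, and 144.4 and 188.8 in the knockout (difference 1.10, SE 0.25, limma, adjusted p = 0.0427). Against heterozygotes 5 of the 15 rose, where 3.11% of all genes were higher, and 0 fell, with a median of 0.30. These were Folr1 (1.12, adjusted p = 0.0204), Sptlc2, a subunit of the enzyme that joins serine to palmitoyl-CoA (0.77, 0.0189), Gcsh and Gldc, which belong to the glycine cleavage system of mitochondria (0.58, 0.0137 and 0.81, 0.0471), and Sfxn1, the carrier that brings serine into mitochondria (0.53, 0.0162). Against wild type the last 4 were at 0.58, 0.40, 0.85 and 0.38, which did not pass (adjusted p from 0.0682 to 0.0982).

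Gldc, Gcsh and Sfxn1 each had both knockout pools on top. Gldc read 159.4 and 149.9 in wild type, 114.5, 196.4 and 178.9 in heterozygotes, and 302.2 and 264.3 in the knockout. Sfxn1 read 554.9 and 515.8, then 456.8, 483.5 and 501.9, then 664.8 and 728.4. Gcsh read 1026 and 824.0, then 825.8, 810.1 and 786.4, then 1190 and 1236. These 3 genes were named for passing against heterozygotes, which makes such an order likely, so it is no separate evidence. The heterozygous pools of Sfxn1 were all below wild type. Dld, another mitochondrial subunit of the glycine cleavage system, stood the other way at 175.3 and 208.9 in the knockout against 225.8 and 247.0 in wild type (-0.30, limma, adjusted p = 0.326), and was named after its value was seen. Each of the 5 calls against heterozygotes was lost without either knockout array (adjusted p up to 0.256), those of Folr1, Gldc and Sptlc2 also without heterozygous replicate 3, and that of Gldc also without either wild-type array. The call of Folr1 against wild type was lost without either array of wild type or knockout or heterozygous replicate 3 (0.0723 to 0.276), and with the mean of its probe sets Sfxn1 was at 0.18 (0.449) against heterozygotes.

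Among amino acid transporters and other targets of ATF4 a few genes rose strongly and most did not pass. This list too was chosen with earlier results known, so its share of risen genes is a description. Of 21 measured genes 5 rose against wild type, 0 fell and 16 did not pass, where 1.96% of all genes were higher, and the median was 0.15. Of the 21 differences 15 were positive. The lowest were Slc1a4 at -0.50 (limma, adjusted p = 0.362), Atf5 at -0.42 (0.280) and Slc38a2 at -0.36 (0.190), named after their values were seen. Stc2, a secreted glycoprotein hormone, read 47.4 and 34.0 in wild type, 56.2, 58.7 and 43.3 in heterozygotes, and 202.3 and 210.6 in the knockout (2.26, SE 0.22, limma, adjusted p = 0.000744). Ddit4, an inhibitor of mTORC1 that low oxygen also induces, read 227.7 and 216.1, then 216.3, 206.9 and 273.8, then 627.3 and 763.1 (1.62, SE 0.16, 0.000744). Both had knockout values far above every other pool. Vldlr, a lipoprotein receptor, rose by 1.52 (SE 0.23, adjusted p = 0.00848), and Slc1a5, the glutamine carrier, by 1.66 (SE 0.39, 0.0462). Slc3a2, the heavy chain of amino acid exchangers, rose by 0.78 (SE 0.15, 0.0205) and completes the count, named after its value was seen. The signal of Slc1a5 in heterozygotes (47.3, 26.7 and 75.1) overlapped the knockout (67.2 and 63.0), and wild type was at 20.2 and 15.9. Stc2 and Ddit4 passed whichever array was left out, and against heterozygotes Stc2, Ddit4 and Vldlr rose (adjusted p up to 0.0012) and 18 did not pass, where 3.11% of all genes were higher. Vldlr lost its call against wild type without either knockout array (0.0739 to 0.0843), and Slc1a5 and Slc3a2 without either array of wild type or knockout (0.0587 to 0.265).

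**Figure D4:**
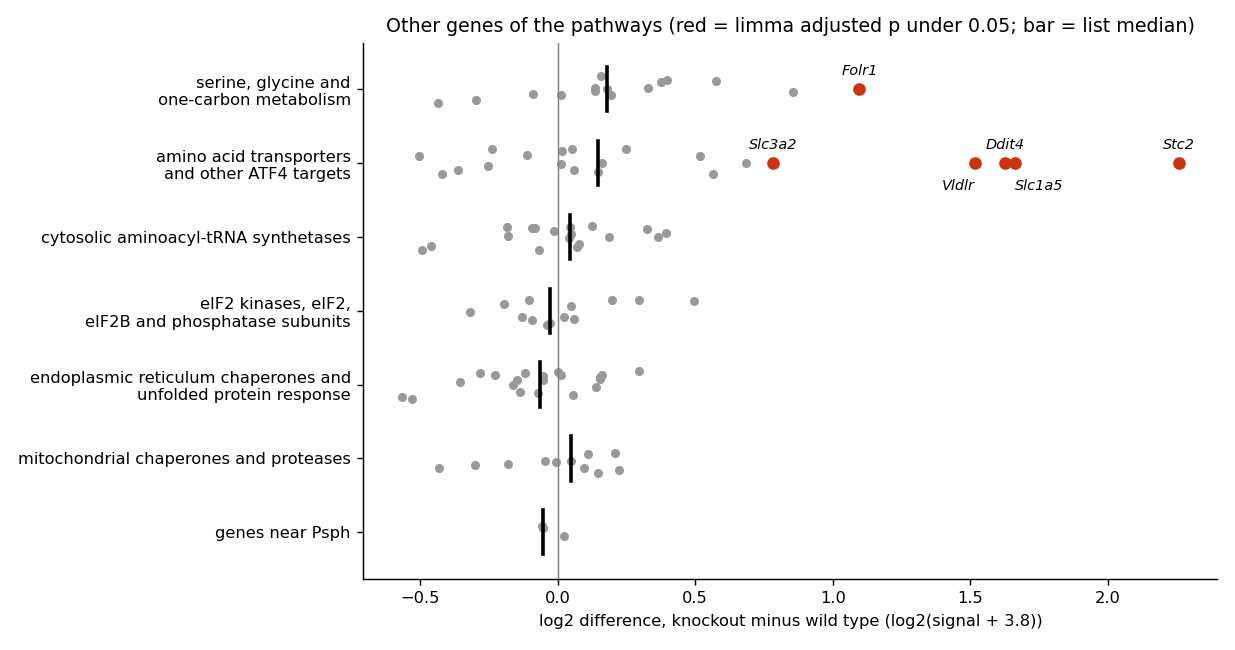
Log2 differences between knockout and wild type, on the log2(signal + 3.8) scale, of the measured genes of 7 lists, without the 10 members; each point is 1 gene, red points passed at a limma adjusted p under 0.05 and are named, black bars are list medians, and vertical scatter only separates points. Red points occur in the upper 2 lists and the other 5 lists lie around 0.

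In the other lists of the stress response no gene passed against wild type (limma). Of 18 cytosolic aminoacyl-tRNA synthetases, many of which ATF4 induces, 0 passed in limma, 5 had an unadjusted p under 0.05, and the median was 0.04, with 0.36 for Lars (adjusted p = 0.121) and 0.33 for Qars (0.144). Others went the other way, such as Farsa at -0.49 (0.174) and Wars at -0.46 (0.183), named after their values were seen. Of 13 kinases, subunits and regulators of eIF2, 0 passed and 2 had an unadjusted p under 0.05. Impact, an inhibitor of the kinase GCN2, was at 0.50 (adjusted p = 0.0929) and Eif2b2 at -0.32 (0.177). Among 20 chaperones and sensors of the endoplasmic reticulum 0 passed, 2 had an unadjusted p under 0.05 and the median was -0.06, with 0.30 for the chaperone Canx (0.182) and -0.56 for the ubiquitin ligase Syvn1 (0.214). Of 11 mitochondrial chaperones and proteases 0 passed and 1 had an unadjusted p under 0.05, the protease subunit Clpp at -0.43 (0.104), and Hspa9 was at 0.21 (0.364). An unadjusted p under 0.05 was reached by 19.1% of all genes.

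The 5 genes with signals most like those of Psph over the 7 arrays were found by the root mean square distance of log2 signals after centring each gene. These were Pkp2, a desmosomal plakophilin (0.09), Ero1a, an oxidase of disulphide formation in the endoplasmic reticulum (0.10), Csf2ra, a subunit of the GM-CSF receptor (0.10), Pdlim2 (0.11) and Ccdc80 (0.12). Ero1a read 262.2 and 223.4 in wild type, 248.1, 250.6 and 207.4 in heterozygotes, and 523.4 and 530.2 in the knockout. Of the other members, Shmt2 was the nearest to Psph at rank 181 (0.24), followed by Asns at 461 (0.31) and Phgdh at 1706 (0.40), and of the 7 that passed the filter on brightness Shmt1 was the farthest at rank 5311. The distance is a description of these arrays and carries no test.

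The knockout arrays that were high in Psph were also those high in visceral endoderm markers. As the mean log2 signal of the 19 markers that passed the filter, this score was 7.10 and 5.48 in wild type, 5.44, 6.64 and 6.12 in heterozygotes, and 8.69 and 8.89 in the knockout. Among the 5 other pools, wild-type replicate 1 and heterozygous replicate 2 had the highest scores. They also had the highest Psph (117.5 and 118.3, against 98.8 to 111.7). Heterozygous replicate 1, with the lowest score, came next at 111.7. The SDs of Psph within wild type and heterozygotes were 10.7 and 9.92, and a link between score and Psph was not tested. Wild-type replicate 1 and heterozygous replicate 2 were also the highest of the 5 in Folr1 and in Asns. In Gldc, heterozygous replicate 3 (178.9) lay above wild-type replicate 1 (159.4). For Shmt2 heterozygous replicate 2 was the highest and heterozygous replicate 1, with the lowest score, came next. With the score as a covariate, added after seeing the data, the Psph difference from wild type was 0.75 and that of Shmt2 0.28 (limma, adjusted p = 0.803), Stc2 1.80 (0.211) and Folr1 0.24 (0.908). The scores of knockout and wild type do not overlap, so genotype and score are hardly separable in this fit, in which 4 of the 8019 genes passed. With the Y-linked score as the covariate in its place, Psph was at 0.49 and Shmt2 at -0.19 (adjusted p = 0.984). In that fit 0 of the 8019 genes passed against wild type. Heterozygotes overlapped the knockout in Y-linked signal and wild type in Psph. The cause of the Psph difference was not tested.

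**Figure D5:**
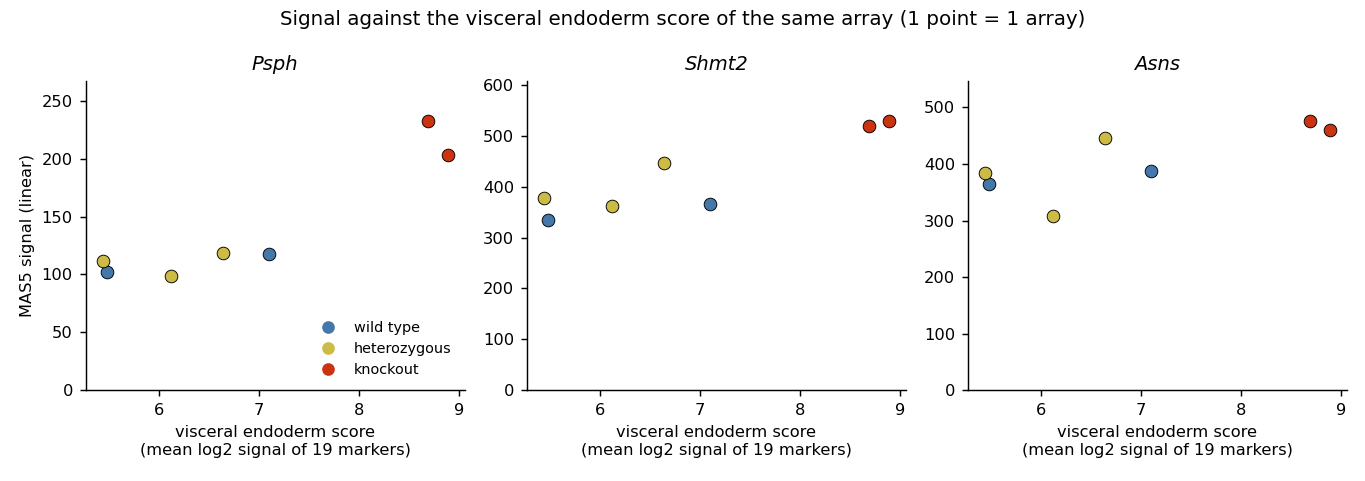
MAS5 signal (linear, from 0) of Psph, Shmt2 and Asns against the visceral endoderm score (mean log2 signal of 19 markers) of the same array; each point is 1 array, coloured by genotype. The knockout arrays are at the right, at scores of 8.69 and 8.89, and the 5 other arrays spread from 5.44 to 7.10 with Psph between 98.8 and 118.3.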

How the data were processed

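The authors deposited 1 linear intensity for each probe set and array; the tool named in the submitters' processing notes is MAS5. For its version and scaling target, the sources used here give nothing. Such scaling makes every change relative to the whole array.

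Of 22690 probe sets, 64 controls were left out. A pseudocount of 3.8 (the 10th percentile) was added before taking log2, which understates changes of dim genes. A gene was its brightest probe set, and genes under the 40th percentile of mean log2 signal were left out, leaving 8019 genes and 8 of the 10 members. Genotypes were compared in R 4.3.3 with limma 3.58.1 (lmFit, eBayes with trend), with all 7 arrays in 1 fit, with 4 residual and 6.19 prior degrees of freedom. P-values are two-sided, with Benjamini-Hochberg adjustment over all genes tested and a threshold of 0.05. The script was tested on simulated data. The members and lists were chosen with earlier results of these data known. Named list genes were up to 4 with the largest change past the threshold, or the 2 of smallest p. Each pool is of different embryos, but whether pools share a litter is unknown here.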

Additional observations from a re-analysis of the deposited data

How the results depend on the processing

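Of the members tested, only Shmt2 passed in the reported or in any alternative run here. Members passing against wild type numbered 0 in place of 1 with no filter, without the intensity trend, with the mean of probe sets, with all probe sets tested, with the replicate block and with either score as a covariate, and 0 to 1 with 1 array left out. Against heterozygotes 1 passed with array weights or a threshold of 0.10, and 0 to 1 with 1 array left out. List genes against wild type numbered 6, and 3 with a filter at the 60th percentile, without the trend or with the replicate block, 0 with either score, 12 at a threshold of 0.10 and 2 to 7 with 1 array left out. With the Y-linked score the differences of Shmt2, Asns and Folr1 from wild type were -0.19, -0.73 and -0.53, and those of Shmt2 and Psph in heterozygotes -0.48 and -0.40. Psat1 was at -0.69 and Shmt1 at -1.05 with it, and at -0.26 and -0.83 with the visceral endoderm score, and Shmt1 at -0.0030 without wild-type replicate 1. Heterozygous Psph was at 0.065 with the replicate block, 0.014 with the visceral endoderm score and -0.10 to 0.091 with 1 array left out. Psat1 was at 0.10 with the mean of probe sets and -0.060 to 0.016 with 1 array left out, and Atf4 against heterozygotes at -0.024 to 0.18. The cause was not tested. All genes passing against wild type numbered 266, and 161 with no filter, 174 without the trend, 514 with array weights, 72 with the replicate block, 4 and 0 with the scores, and 52 to 403 with 1 array left out. Against heterozygotes they numbered 470, and 306, 262, 663, 76, 0 and 144 in that order of settings, and 69 to 548 with 1 array left out. The labels link pools across genotypes only by a replicate number. Deviations from genotype means in 6 same-numbered pairs correlated from -0.29 to 0.00473, none above 0.1. In a genotype with 2 arrays the deviations mirror each other, so these are not 6 separate values and cannot decide whether pools are paired. A lone array in a genotype was assumed to vary like the others. The number of arrays limits the precision.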
